A study of Mus musculus with 18 samples.

Results

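The genes described here are 36 genes of the endoplasmic reticulum (ER) of mouse liver that fold secreted proteins, carry them into the ER or pass misfolded ones to ER-associated degradation (ERAD). They were chosen by gene symbol from a table of 19057 genes, with the RPKM values of these 18 libraries and earlier comparisons of them already known. RPKM are reads scaled to the length of the gene and the size of the library. All 36 genes were listed, and all 36 were among the 10204 genes that entered the tests, which averaged 1 RPKM or more. Counts and medians over the 36 therefore describe them and are no independent evidence that they move together.

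Liver RNA of male ICR mice, an outbred stock, was sequenced at 10 weeks of age in 6 groups of 3 libraries. Con mice ate regular diet and received saline. HS mice were put on high-fat food at 3 weeks, which went on to the end, and at 5 weeks were injected with 85 mg/kg of streptozotocin (STZ), a toxin of insulin-producing cells. A10-FMT and Con-FMT mice had that same diet and STZ and were given intestinal contents by mouth from 5 to 7 weeks. For A10-FMT the donors had been dosed with 10 mg/kg of alginate oligosaccharide (AOS), and for Con-FMT they had received water. Donor contents were pooled, so each transplant stands for a single inoculum. The A10 mice (AOS at 10 mg/kg) and the HS+A10 mice (high-fat diet, STZ and AOS at 10 mg/kg) are known from the sample labels only, and their dosing schedule is not given in the sources used here. Nothing in these sources says whether a library came from 1 mouse or from several, so p-values measure only the spread between these libraries, which may be technical. In whole liver, fewer cells of a type and less RNA per cell cannot be told apart.

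Secreted and membrane proteins enter the ER through the Sec61 channel, are folded there by HSP70 and HSP90 chaperones, disulfide isomerases and the lectins calnexin and calreticulin, and are pulled back to the cytosol for degradation if folding fails. Unfolded proteins set off the unfolded protein response (UPR), in which the sensors Ern1 (IRE1α), Atf6 and Eif2ak3 (PERK) act. Spliced Xbp1 and cleaved Atf6 then raise chaperone and ERAD genes through elements in their promoters, among them the ER stress response element (ERSE). Hepatocytes make most plasma proteins and hold an extensive ER.

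Stretches of the promoters of Hspa5, Hsp90b1, Creld2, Syvn1, Derl3 and Herpud1 are shown, picked because they hold this kind of element and because the levels of these genes are described below. RefSeq promoters (GRCm38.p6, from 250 bases before to 50 after the transcription start) were found for 29 of the 36 members. The ERSE, with the letters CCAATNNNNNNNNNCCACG searched on both strands, occurred in 9 of these 29 (31.0%) and in 0.137% of 27025 genes with a promoter. Those 9 were Hspa5, Hsp90b1, Dnajc3, Pdia6, Calr, Canx, Creld2, Syvn1 and Derl3. ERSE-II, with the letters ATTGGNCCACG, occurred in Herpud1 and Dnajb11 and in 0.0444% of genes, and the UPRE core TGACGTGG occurred in 0 of the 29 members and in 0.714% of genes. The stretches below run 5′ to 3′ on the strand of the gene, and capitals mark the ERSE or, in Herpud1, the ERSE-II. In Hsp90b1, Creld2 and Derl3 the capitals hold the element of the opposite strand. The Hspa5 stretch lies at chr2:34772020-34772048 (plus strand), that of Hsp90b1 at chr10:86705510-86705591 (minus), Creld2 at chr15:88819480-88819578 (plus), Syvn1 at chr19:6046492-6046575 (plus), Derl3 at chr10:75893202-75893300 (plus) and Herpud1 at chr8:94386337-94386427 (plus).
Hspa5: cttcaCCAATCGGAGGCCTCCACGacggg
Hsp90b1: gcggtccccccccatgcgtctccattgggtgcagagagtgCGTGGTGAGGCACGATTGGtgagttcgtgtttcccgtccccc
Creld2: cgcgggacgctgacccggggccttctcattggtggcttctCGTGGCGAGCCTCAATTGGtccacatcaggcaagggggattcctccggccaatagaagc
Syvn1: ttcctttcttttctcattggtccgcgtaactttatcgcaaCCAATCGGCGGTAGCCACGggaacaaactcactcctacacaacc
Derl3: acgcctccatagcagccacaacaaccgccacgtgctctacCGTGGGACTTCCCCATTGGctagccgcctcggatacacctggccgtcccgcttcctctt
Herpud1: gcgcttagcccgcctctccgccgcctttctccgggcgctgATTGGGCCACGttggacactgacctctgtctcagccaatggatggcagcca
The capitals begin 65 bases before the start in Hspa5, 107 in Hsp90b1, 126 in Creld2, 44 in Syvn1, 156 in Derl3 and 52 in Herpud1. A match of letters is a description of the promoter and not a measured binding site.

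Hepatocyte markers were abundant in every library, with Alb, the albumin gene, between 21271 and 37253 RPKM. Con-FMT replicate 3 also held pancreatic mRNA: the summed level of 31 acinar genes was 28747 RPKM there and 14.5 to 50.8 RPKM in the other 17 libraries. The digestive enzymes Prss2 and Cela3b stood at 1929 and 1321 RPKM in that library and at most at 0.42 RPKM elsewhere, and the pancreatic disulfide isomerase Pdia2 at 25.3 RPKM and at most at 0.04. Because acinar cells are rich in ER, counts of called genes with Con-FMT are given also without this library. Con replicates 1 and 2 differed by at least 0.5 (log2) in 858 genes, and Con replicate 3 lay between them in 95.5% of these. Without regard to that difference, it lay between them in 25 of the 36 members and in 57.6% of all tested genes. HS replicate 1 was the lowest HS library for 31 of the 36 members, so counts of called genes with HS are also given without it. Relative depth, read from the steps between low RPKM values, was 0.956 to 1.033 across libraries, and the number of reads is unknown. Dbp, an output gene of the circadian clock, had a mean of 0.64 RPKM in Con, 1.85 in A10 and 1.73 in HS, but 65.8 in HS+A10, 77.9 in A10-FMT and 53.4 in Con-FMT. Comparisons of HS+A10, A10-FMT or Con-FMT with Con or HS carry this difference, and so does the interaction described below. Its part in them was not tested.

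Summed over the 36 genes, RPKM took its largest share of a library in Con-FMT and its smallest in A10-FMT. Their summed RPKM was 0.606 to 0.744% of all RPKM in the Con-FMT libraries, against 0.270 to 0.341% in A10-FMT and 0.311 to 0.371% in HS+A10. The Con libraries held 0.407 to 0.451%, the A10 libraries 0.407 to 0.469% and the HS libraries 0.406 to 0.580%. The lowest Con-FMT library was therefore above, and the highest A10-FMT and HS+A10 libraries below, every Con, A10 and HS library.

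**Figure D1:**
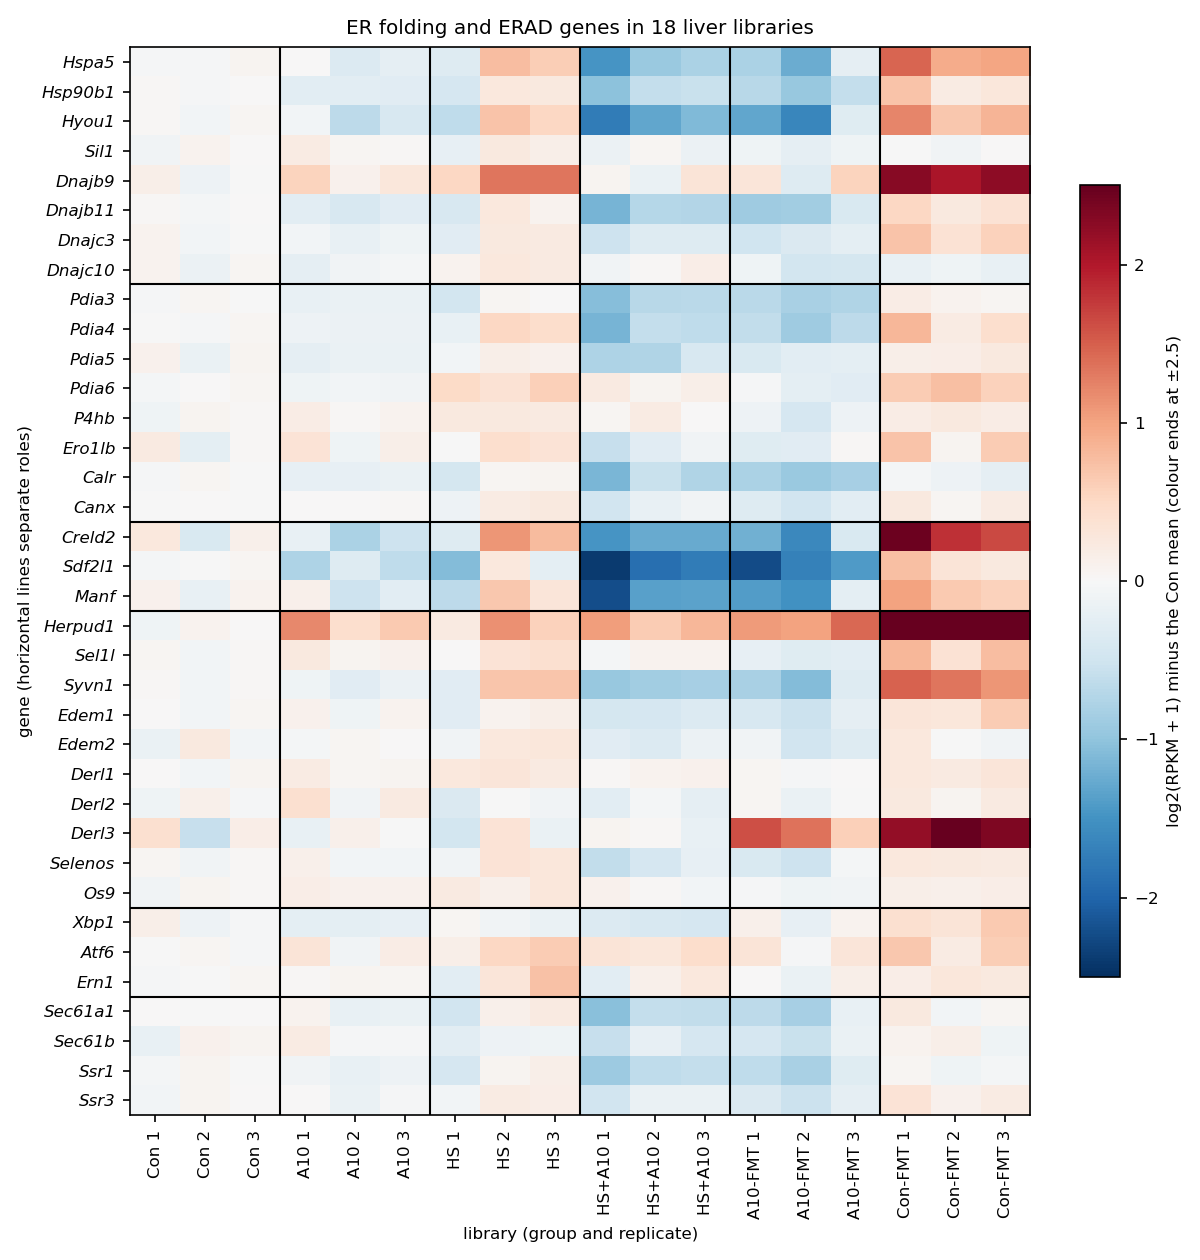
Colour shows log2(RPKM + 1) of each of the 36 genes (rows, separated by role) in each of the 18 libraries (columns, separated by group) minus the Con mean, with the colour ending at ±2.5. Creld2, Sdf2l1 and Manf were below the Con mean in all HS+A10 and A10-FMT libraries and above it in all Con-FMT libraries, whereas Herpud1 was above it in every library of the 5 other groups.

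Hspa5 (BiP), the HSP70 of the ER and the main binder of unfolded chains, was at 285, 284 and 304 RPKM in Con, at 293, 228 and 249 RPKM in A10 and at 232, 499 and 444 RPKM in HS (values here and below are in the order of replicates 1, 2 and 3). It was at 105, 152 and 168 RPKM in HS+A10, at 168, 123 and 249 RPKM in A10-FMT and at 798, 552 and 579 RPKM in Con-FMT. The 3 Con-FMT values were above those of every other library, and all HS+A10 values lay below all Con, A10 and HS values.

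Hsp90b1 (GRP94), the HSP90 of the ER, was at 341, 330.2 and 336 RPKM in Con, 279, 278 and 276 RPKM in A10 and 249.9, 405 and 396 RPKM in HS. The other groups held 164, 221 and 227 RPKM (HS+A10), 208, 173 and 223 RPKM (A10-FMT) and 548, 387 and 411 RPKM (Con-FMT). All HS+A10 and A10-FMT libraries were below every library of the 4 other groups.

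Pdia4, a disulfide isomerase that works with these chaperones, was at 78.9, 77.6 and 81.7 RPKM in Con, 72.9, 71.8 and 71.5 RPKM in A10 and 69.3, 114 and 108 RPKM in HS. It was at 34.9, 52.2 and 51.1 RPKM in HS+A10, 51.6, 42.1 and 50.4 RPKM in A10-FMT and 143, 92.0 and 107 RPKM in Con-FMT. As for Hsp90b1, HS+A10 and A10-FMT lay below all other libraries, whereas Con-FMT overlapped with HS.

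Sdf2l1, a small partner of BiP in its chaperone complexes, was at 38.9, 39.7 and 41.5 RPKM in Con, 23.0, 31.8 and 25.4 RPKM in A10 and 18.4, 48.2 and 33.7 RPKM in HS. HS+A10 held 6.81, 10.2 and 11.1 RPKM, A10-FMT 7.74, 11.7 and 14.3 RPKM, and Con-FMT 68.0, 49.96 and 47.8 RPKM. No HS+A10 or A10-FMT library reached the lowest library of any other group.

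Creld2, a small ER-resident protein, was at 34.9, 22.02 and 31.9 RPKM in Con, 25.6, 16.4 and 19.9 RPKM in A10 and 23.0, 63.3 and 51.1 RPKM in HS. It was at 9.75, 11.6 and 11.6 RPKM in HS+A10, 12.1, 8.90 and 22.03 RPKM in A10-FMT and 164, 106 and 93.6 RPKM in Con-FMT. The lowest Con-FMT library stood above the highest library of all other groups.

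Herpud1, a membrane protein that gathers the ERAD complex, followed another order. It was at 68.8, 79.5 and 75.0 RPKM in Con, 171, 100.03 and 118 RPKM in A10 and 87.1, 166 and 111 RPKM in HS. HS+A10 held 154, 115 and 133 RPKM, A10-FMT 157, 151 and 204 RPKM, and Con-FMT 549.8, 439 and 474 RPKM. Every other library was above the highest Con library, and Con-FMT stood above all.

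Derl3, a derlin of the ERAD channel, was low in liver and was at 2.38, 0.73 and 1.88 RPKM in Con, 1.25, 1.81 and 1.53 RPKM in A10, 0.86, 2.23 and 1.29 RPKM in HS and 1.67, 1.63 and 1.25 RPKM in HS+A10. It was at 6.84, 5.55 and 2.88 RPKM in A10-FMT and at 10.8, 17.3 and 11.9 RPKM in Con-FMT. Both transplanted groups were above all others without overlap.

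Xbp1, the transcription factor whose mRNA IRE1α splices, moved less, with 97.8, 80.5 and 85.7 RPKM in Con, 74.1, 74.3 and 76.3 RPKM in A10 and 90.9, 82.6 and 78.2 RPKM in HS. It was at 68.8, 66.4 and 65.5 RPKM in HS+A10, 95.8, 76.4 and 93.0 RPKM in A10-FMT and 116, 110.2 and 139 RPKM in Con-FMT. The spliced and unspliced forms are not separated in gene totals.

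Sec61b, a subunit of the Sec61 channel, was at 137, 167 and 163 RPKM in Con, 178, 152 and 152 RPKM in A10 and 128, 142 and 143 RPKM in HS. It was at 104, 135 and 115 RPKM in HS+A10, 116, 105 and 138 RPKM in A10-FMT and 165, 172 and 145 RPKM in Con-FMT. Its groups overlapped more than those of the chaperones.

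**Figure D2:**
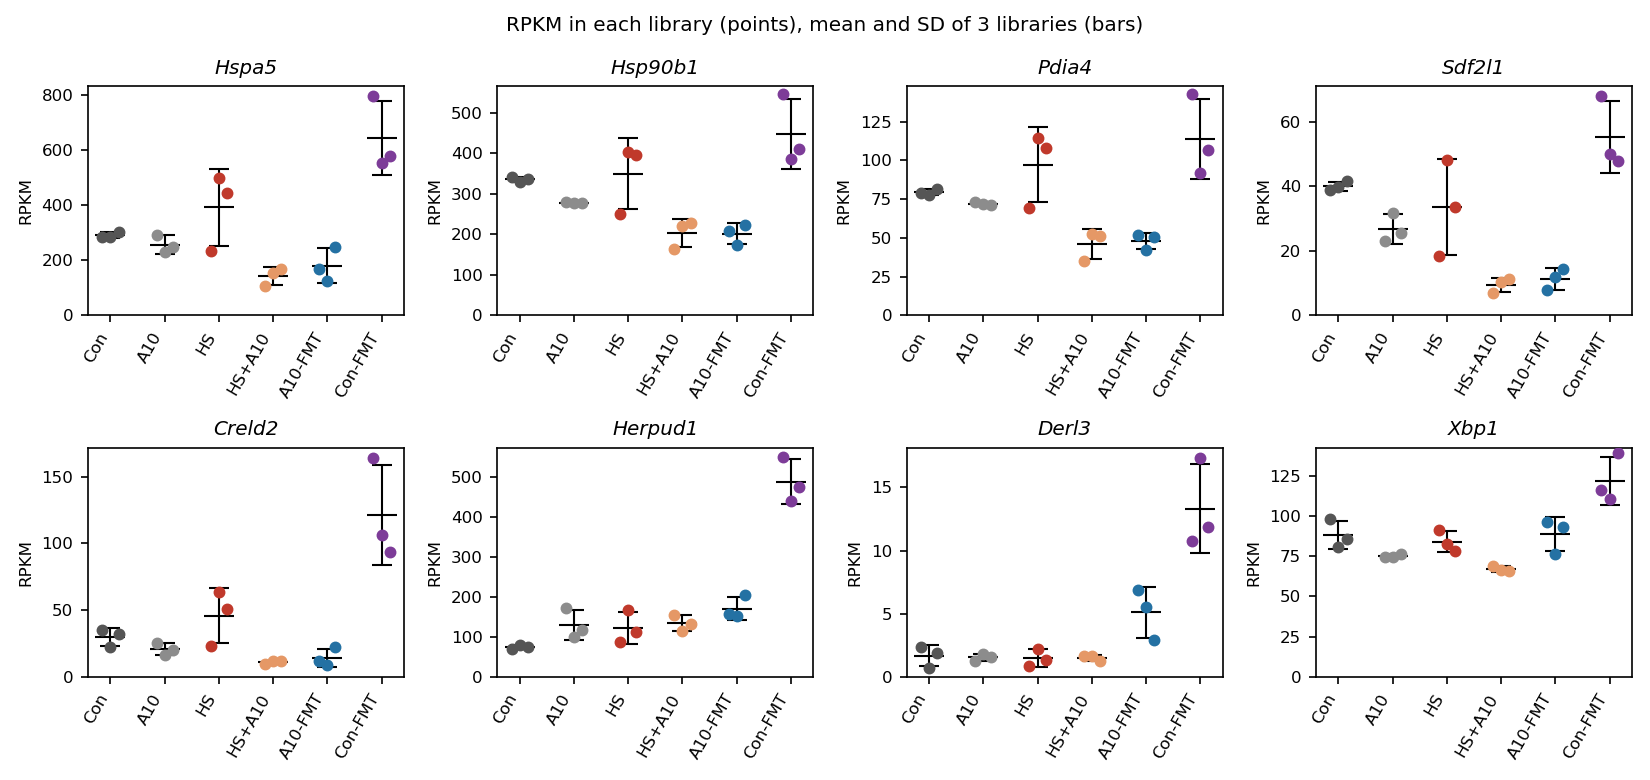
Points are the RPKM of 8 genes in each library by group, with bars for the mean and SD of 3 libraries, on linear axes that start at 0. Con-FMT was the highest group for all 8 genes, and for Hspa5 its libraries were at 552 to 798 RPKM against 123 to 249 RPKM in A10-FMT.

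The first comparison asks what the high-fat diet and STZ did to these genes. In HS, the ER co-chaperone Dnajb9 (ERdj4), the disulfide isomerase Pdia6 and the ERAD factors Derl1 and Os9 were higher than in Con, and the other 32 members did not pass the test. All tested genes were called at a rate of 17.7%, with 15.9% higher and 1.87% lower. Dnajb9 was at 28.1, 23.0 and 25.1 RPKM in Con and at 36.9, 65.6 and 65.6 RPKM in HS, 2.2-fold higher (log2 change 1.07, SE 0.23, adjusted p = 0.00704). Pdia6 was at 148, 154 and 158 RPKM in Con and 215, 197 and 233 RPKM in HS, 1.4-fold higher (adjusted p = 0.00210). Derl1, at 35.5, 34.0 and 37.1 RPKM in Con and 42.5, 44.3 and 41.7 RPKM in HS, and Os9, at 60.4, 67.3 and 65.5 RPKM in Con and 75.6, 70.3 and 78.6 RPKM in HS, differed by 1.21-fold and 1.16-fold (adjusted p = 0.0111 and 0.0426). For these 4, and for 8 members in all, every HS library was above every Con library, as it was for 32.6% of tested genes. Hspa5 had a mean of 391.9 ± 141 RPKM in HS and 291 ± 11.2 RPKM in Con (SD, n = 3) and was not called (adjusted p = 0.384), since its HS libraries lay on both sides of Con.

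The median log2 change of the members in HS was 0.13, beside 0.14 for all tested genes. It was -0.056 after scaling to equal medians, so the sign of the members' median depended on the scaling. Without HS replicate 1, 8 members were higher and 0 lower (15.5% of genes called), which then included Herpud1, Syvn1, Sel1l, Atf6 and Ern1, while Os9 was no longer called (adjusted p = 0.0847). Without Con replicate 3, 3 members were called (9.15% of genes called).

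The second comparison asks how recipients of AOS-donor microbiota differed from HS mice. Most ER folding genes were lower in A10-FMT: 26 of the 36 members were lower and 1 was higher, where 21% of all tested genes were called lower and 2.09% higher, 23.1% in all. The fall was seen in 7 of 8 HSP70 and HSP90 machines, 7 of 8 disulfide and lectin genes, 3 of 3 small UPR-induced proteins, 7 of 10 ERAD genes and 2 of 4 translocon genes, but in 0 of the 3 sensors and transcription factors. With scaling to equal medians, 11 members were lower and 2 higher, where 5.06% of all genes were called lower and 6.26% higher. With quantile normalization 13 were lower and 1 higher, where these shares were 5.3% and 5.62%.

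Creld2 was 3.19-fold lower in A10-FMT than in HS (14.3 ± 6.85 against 45.8 ± 20.6 RPKM, log2 change -1.59, SE 0.35, adjusted p = 0.0060). Sdf2l1 was 2.97-fold lower (log2 change -1.43, SE 0.28, adjusted p = 0.00338). For these and 14 more members all A10-FMT libraries were below all HS libraries, as for 32.8% of tested genes. Hyou1 (GRP170), an exchange factor for BiP, was at 27.3, 71.6 and 61.8 RPKM in HS and at 17.0, 13.3 and 35.0 RPKM in A10-FMT, 2.46-fold lower (adjusted p = 0.0159). The secreted ER protein Manf was at 34.1, 86.6 and 67.0 RPKM in HS and 20.1, 18.3 and 45.5 RPKM in A10-FMT, 2.24-fold lower (adjusted p = 0.0280). For Hyou1 and Manf the highest A10-FMT library was above the lowest HS library, HS replicate 1. Syvn1 (HRD1), the ubiquitin ligase of ERAD, was at 26.1, 52.6 and 52.4 RPKM in HS and 17.8, 14.6 and 25.3 RPKM in A10-FMT, 2.27-fold lower and without overlap (adjusted p = 0.00346).

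The abundant folding enzymes fell by smaller ratios with less spread. Pdia6 was 1.59-fold lower (135 ± 13.2 against 215 ± 17.8 RPKM, adjusted p = 0.000304), the lectin Calr 1.70-fold lower (314 ± 15.1 against 532 ± 99.7 RPKM, adjusted p = 0.00248) and P4hb, which is also a subunit of collagen prolyl hydroxylase, 1.37-fold lower (402 ± 43.7 against 551 ± 3.91 RPKM, adjusted p = 0.00309). Hspa5 was 2.18-fold lower and Hsp90b1 1.74-fold lower (adjusted p = 0.0123 and 0.00779). The called ERAD members besides Syvn1 were Sel1l, its partner in the ligase complex, the mannosidase-like proteins Edem1 and Edem2, Derl1, Selenos and the lectin Os9, each 1.20-fold to 1.45-fold lower. Also lower were the BiP co-chaperones Dnajb11, Dnajc3 and Dnajb9, the reductase Dnajc10, the isomerases Pdia3, Pdia4 and Pdia5, the lectin Canx and the translocon-associated subunits Ssr1 and Ssr3.

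Derl3 was the exception, 3.49-fold higher in A10-FMT than in HS (5.09 ± 2.02 against 1.46 ± 0.70 RPKM, log2 change 1.29, SE 0.28, adjusted p = 0.00568). It was the only member whose A10-FMT libraries were all above HS, a pattern of 4.59% of tested genes. Herpud1 was not called (ratio 1.4, adjusted p = 0.0892), nor were Xbp1, the derlin Derl2, the sensors Atf6 and Ern1, the channel subunits Sec61a1 and Sec61b, Sil1, an exchange factor of BiP, and the oxidase Ero1lb. The median log2 change of the members was -0.49 beside -0.16 over all genes, a difference of -0.33. Without HS replicate 1, 29 members were lower and 1 higher (22.9% of genes called), and the 27 called with all libraries were among them. Between 16 and 17 were lower without HS replicate 2, HS replicate 3 or A10-FMT replicate 2 (11.6 to 13.5% of genes called lower). Dbp was at 1.17 to 2.22 RPKM in HS and 48.8 to 98.8 RPKM in A10-FMT, and its part in these differences was not tested.

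The third comparison sets recipients of control-donor microbiota against HS mice. Here 5 of the 10 ERAD members were called higher, with Derl3 and Herpud1 by the largest ratios of all 36. This did not extend to 21 other tested ERAD factors, of which 0 were called higher and 1 lower. In all, 9 members were higher and 1 lower, where 4.61% of all genes were called higher and 19% lower, 23.6% in all. Derl3 was 9.13-fold higher (13.3 ± 3.51 against 1.46 ± 0.70 RPKM, log2 change 2.55, SE 0.28, adjusted p = 4.71e-05). Herpud1 was 4.02-fold higher (488 ± 56.4 against 121 ± 40.6 RPKM, log2 change 2.04, SE 0.22, adjusted p = 4.64e-05). Creld2 was 2.65-fold higher (adjusted p = 0.00752).

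Dnajb9 was at 127, 108 and 123 RPKM in Con-FMT, 2.13-fold above HS (adjusted p = 0.00312). Syvn1 was at 90.6, 82.5 and 70.3 RPKM, 1.86-fold above HS (adjusted p = 0.00678). These 5 genes are among the 13 members whose Con-FMT libraries were all above HS, as 7.11% of tested genes were. Sel1l, Edem1, the co-chaperone Dnajc3 and Xbp1 were 1.35-fold to 1.45-fold higher. Dnajc10 was lower and without overlap (27.9% of tested genes), at 6.06, 6.49 and 6.12 RPKM against 7.58, 8.62 and 8.38 RPKM (1.32-fold, adjusted p = 0.0196), and was not called after either rescaling.

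The 8 disulfide and lectin genes and the 4 translocon genes had 0 calls in Con-FMT against HS. P4hb, for example, was at 540.3 ± 14.02 RPKM against 551 ± 3.91 RPKM (log2 change -0.03, SE 0.09) and Calr at 518 ± 30.6 against 532 ± 99.7 RPKM (log2 change -0.02, SE 0.14). Hspa5 had a ratio of 1.64 and no overlap, with an adjusted p of 0.0579. The median log2 change of the members was 0.23, beside -0.12 over all genes, and 0.12 without HS replicate 1. Dbp was at 1.17 to 2.22 RPKM in HS and 51.8 to 55.5 RPKM in Con-FMT, and its part was not tested.

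Without Con-FMT replicate 3, the library with pancreatic mRNA, 7 members were higher and 1 lower (22.2% of genes called). Derl3 then had a log2 change of 2.62 (SE 0.32), Herpud1 2.06 (SE 0.25) and Creld2 1.62 (SE 0.39), close to their values with all libraries, and Sel1l and Edem1 were no longer called (adjusted p = 0.0641 and 0.0764). In Con-FMT replicate 3 itself Hspa5, Herpud1 and Derl3 lay between the other Con-FMT libraries, as did 20 members in all. It was the highest Con-FMT library for 6 members, among them Xbp1, and the lowest for 10. Without HS replicate 1, 6 members were higher and 1 lower (18.7%). Sel1l, Edem1 and Dnajc3 then lost their calls, and the log2 change of Syvn1 was 0.61 in place of 0.94.

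**Figure D3:**
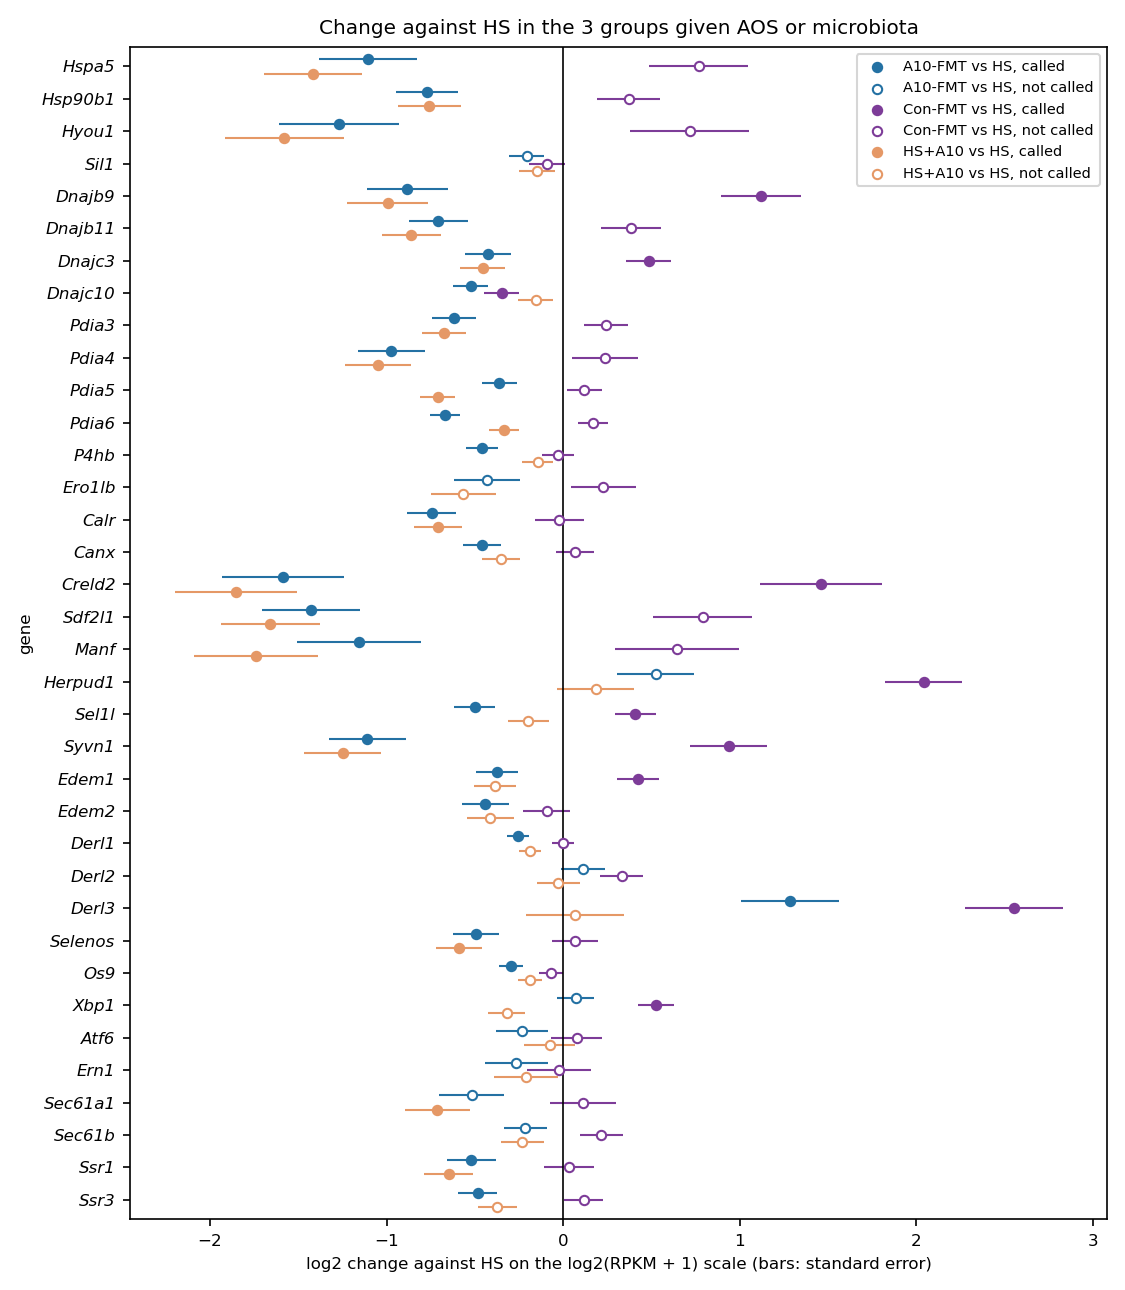
Points are log2 changes against HS on the log2(RPKM + 1) scale for each of the 36 genes (rows) in A10-FMT, Con-FMT and HS+A10, with bars for the standard error and filled points for called genes. Most A10-FMT and HS+A10 points lie left of 0, whereas Con-FMT points reach 2.55 for Derl3 and 2.04 for Herpud1.

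**Figure D4:**
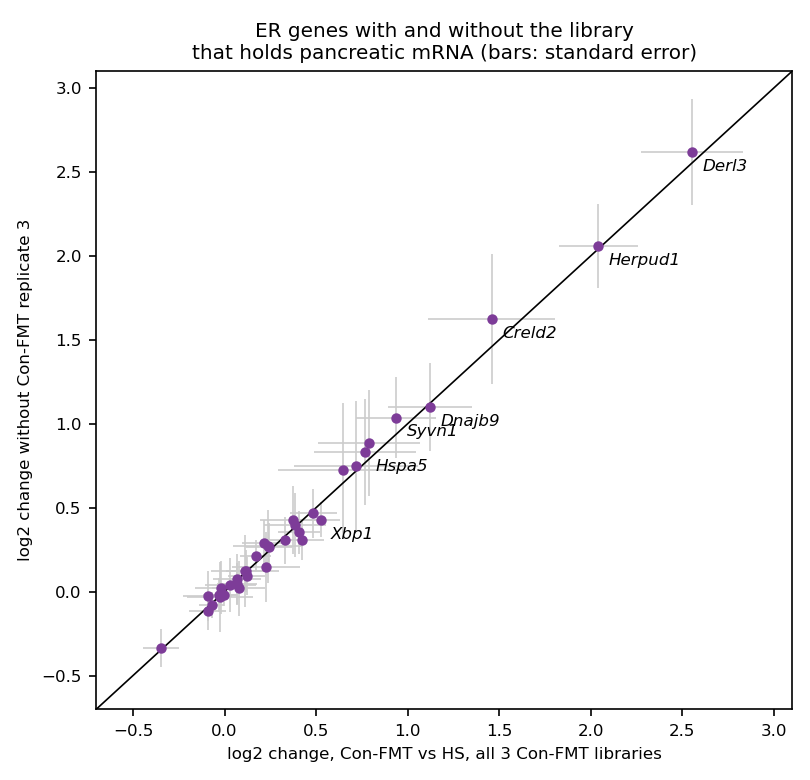
Each point is a gene, with its log2 change in Con-FMT against HS from all 3 Con-FMT libraries (x axis) and without Con-FMT replicate 3 (y axis), bars for the standard error and a line of equality. Derl3 moved from 2.55 to 2.62 and Creld2 from 1.46 to 1.62 when the library with pancreatic mRNA was left out.

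The fourth comparison, A10-FMT with Con-FMT, sets the recipients of the 2 donor groups against each other, on the same diet, STZ and transplant schedule. All 36 members were lower in sign in A10-FMT and 30 were called lower, where 12% of all tested genes were called lower and 6.72% higher, 18.8% in all. For 33 members every A10-FMT library was below every Con-FMT library, as it was for 19.4% of tested genes. The called members took in 8 of 8 disulfide and lectin genes, 4 of 4 translocon genes, 3 of 3 small UPR-induced proteins, 8 of 10 ERAD genes, 6 of 8 HSP70 and HSP90 machines and, of the 3 sensors and transcription factors, Xbp1.

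Creld2 was 8.47-fold lower (14.3 ± 6.85 against 121 ± 37.6 RPKM, log2 change -3.05, SE 0.35, adjusted p = 6.7e-05). Sdf2l1 was 4.91-fold lower (log2 change -2.22, SE 0.28, adjusted p = 0.000141), Syvn1 4.22-fold lower (log2 change -2.05, SE 0.22, adjusted p = 4.19e-05), Dnajb9 3.99-fold lower (log2 change -2.004, SE 0.23, adjusted p = 6.81e-05) and Hyou1 3.82-fold lower (log2 change -1.99, SE 0.34, adjusted p = 0.0011). The chaperones Hspa5 and Hsp90b1 were 3.57-fold and 2.23-fold lower. Herpud1 and Derl3, which stood above Con in both transplanted groups, were 2.86-fold and 2.62-fold lower in A10-FMT than in Con-FMT. Xbp1 differed by 1.38-fold (88.4 ± 10.5 against 122 ± 15.1 RPKM, adjusted p = 0.00719).

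The 6 members not called were Sil1, Dnajc10, Edem2, Derl2, Atf6 and Ern1. For Atf6 the means were 5.88 ± 0.92 and 7.56 ± 1.44 RPKM, with overlap. The median log2 change of the members was -0.69, beside -0.03 over all genes. Without Con-FMT replicate 3, 27 members were called lower (16.1% of genes called), each of which was among the 30, and the median was -0.66. Ero1lb, Os9 and Sec61a1 were the 3 no longer called (adjusted p = 0.0722, 0.0763 and 0.0537), and Creld2 had a log2 change of -3.21, Syvn1 of -2.15 and Dnajb9 of -1.98. Dbp was at 98.8, 48.8 and 86.2 RPKM in A10-FMT and at 51.8, 55.5 and 53.0 RPKM in Con-FMT. Its part in this comparison was not tested.

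**Figure D5:**
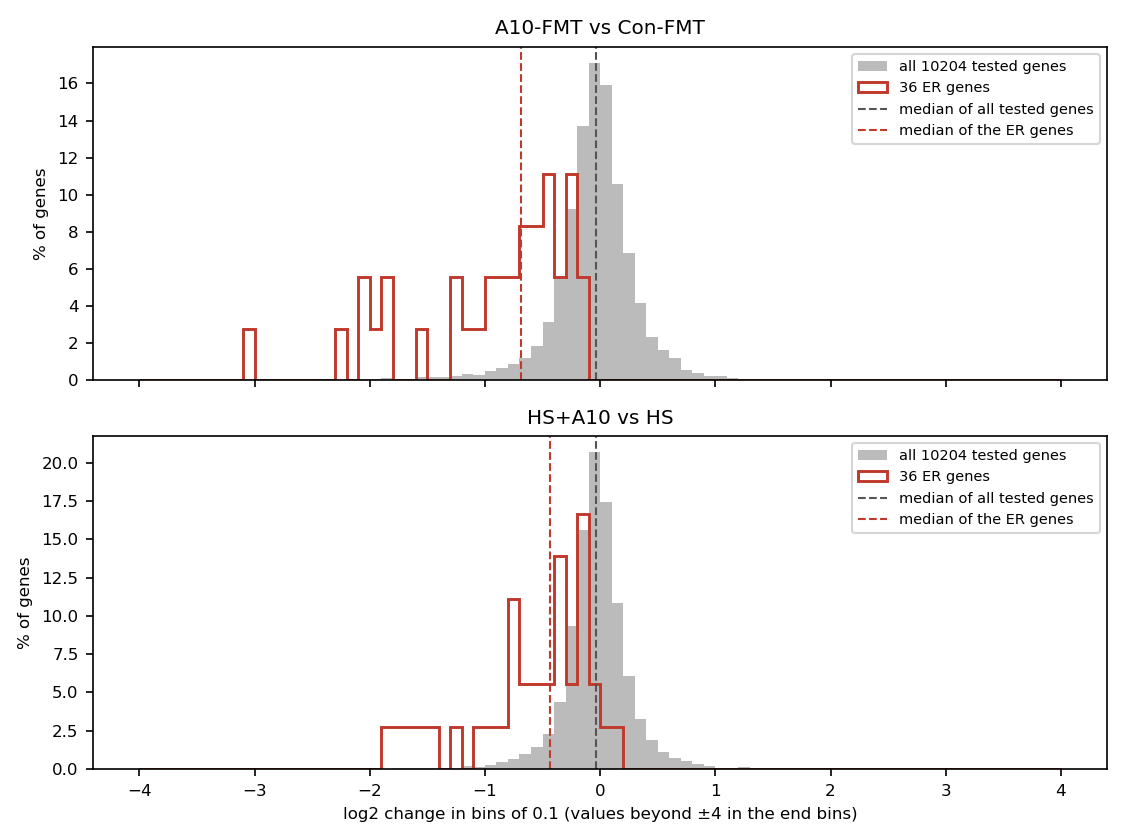
Histograms show the percentage of genes by log2 change (bins of 0.1) for all 10204 tested genes (grey) and the 36 ER genes (red outline), with dashed lines at the medians, for A10-FMT against Con-FMT (top) and HS+A10 against HS (bottom). The median of the ER genes was -0.69 and -0.43, and that of all genes -0.03 in both.

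The fifth comparison, known from the labels alone, is AOS itself in HS mice. In HS+A10, 18 members were lower than in HS and 0 higher, where 4.37% of all tested genes were called lower and 2.95% higher, 7.32% in all. They were 6 of 8 HSP70 and HSP90 machines, 5 of 8 disulfide and lectin genes, 3 of 3 small UPR-induced proteins, 2 of 4 translocon genes (Sec61a1 and Ssr1) and 2 of 10 ERAD genes (Syvn1 and Selenos). For 26 members all HS+A10 libraries were below all HS libraries, as for 15.7% of tested genes.

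Creld2 was 4.17-fold lower than in HS (10.97 ± 1.05 against 45.8 ± 20.6 RPKM, log2 change -1.85, SE 0.35, adjusted p = 0.0075). Manf, at 10.95, 20.5 and 20.9 RPKM in HS+A10, was 3.58-fold lower (adjusted p = 0.0113), and Sdf2l1 was 3.57-fold lower (adjusted p = 0.00418). Hyou1, at 12.2, 17.0 and 19.5 RPKM, was 3.31-fold lower (adjusted p = 0.0150), and Hspa5 2.77-fold lower (adjusted p = 0.00951). None of these 5 genes overlapped with HS.

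Derl3, at 1.52 ± 0.23 against 1.46 ± 0.70 RPKM, and Herpud1, at 134 ± 19.6 against 121 ± 40.6 RPKM, were not called in HS+A10 (log2 changes of 0.07, SE 0.28, and 0.18, SE 0.22). The median log2 change of the members was -0.43, beside -0.03 over all genes. The count rested on particular libraries: it was 25 without HS replicate 1, where 7.68% of all genes were called lower, and the 18 were among these 25. It was 9 without HS replicate 2 (1.15% of genes lower), 10 without HS replicate 3 (1.23%) and 6 without HS+A10 replicate 1 (0.795%). With only the HS and HS+A10 libraries in the limma fit it was 0 (0.29% of genes lower). In that fit 25 members were at an unadjusted p under 0.05, as were 2266 of 10328 genes. Dbp was at 47.3 to 97.5 RPKM in HS+A10, and its part was not tested.

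Without the diet and STZ, no effect of AOS on these genes passed the test. In A10 against Con, limma called 0 members, where 7 of all tested genes (0.0686%) were called, 0.049% higher and 0.0196% lower. An unadjusted p under 0.05 was reached by 2 members and by 1418 of the 10204 tested genes. For 3 members all A10 libraries were above Con and for 12 below, patterns of 19.6% and 5.27% of tested genes. Those 2 were Herpud1, with a ratio of 1.74 and no overlap (log2 change 0.76, SE 0.22, adjusted p = 0.171), and Xbp1, with a ratio of 0.851 (log2 change -0.23, SE 0.10, adjusted p = 0.352). Whether the effect of HS differed with and without AOS was tested as an interaction, (HS+A10 minus A10) minus (HS minus Con). Of these groups only HS+A10 had a high Dbp level, with a mean of 65.8 RPKM, and its part was not tested. By limma 0 members were called and 1 gene in all (0.0098%). An unadjusted p under 0.05 was reached by 21 members and by 1320 of the 10204 tested genes. In sign 35 of the 36 were negative, with a median log2 change of -0.45 beside -0.09 over all genes. Without HS replicate 1, Hspa5, Dnajb9, Pdia3, Pdia4, Sdf2l1 and Syvn1 were called (1.16% of genes called).

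Against Con, in comparisons chosen after the data had been seen, the groups stood on both sides. In Con-FMT 13 members were higher and 0 lower (14.4% of genes called higher, 11.5% lower). Herpud1 was 6.55-fold, Derl3 8.01-fold, Dnajb9 4.69-fold, Creld2 4.10-fold and Syvn1 2.53-fold above Con, and Hspa5 2.21-fold (adjusted p = 0.00814). The transcription factor Xbp1 was 1.38-fold and the sensor Atf6 1.52-fold higher (adjusted p = 0.00444 and 0.0186), and the sensor Ern1, at 9.64 against 8.06 RPKM, was not called. Atf6 lost its call without Con replicate 3 (adjusted p = 0.0554) and without Con-FMT replicate 3 (adjusted p = 0.0650). Without Con-FMT replicate 3 the count was 11 (11.2% of genes called higher), and without Con replicate 3 it was 12 (10.5%).

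In A10-FMT 14 members were lower than in Con and 2, Derl3 and Herpud1, were higher (7.62% of genes called lower, 6.72% higher). Sdf2l1 was 3.55-fold lower, Hyou1 1.99-fold, Calr 1.81-fold, Pdia3 1.68-fold and Syvn1 1.67-fold. Calr was at 552, 588 and 559.9 RPKM in Con and at 327, 297 and 316 RPKM in A10-FMT (adjusted p = 0.00117). Pdia3, which works with calnexin and calreticulin, was at 238, 251 and 244 RPKM in Con and at 153, 138 and 144 RPKM in A10-FMT (adjusted p = 0.00131). The 16 calls, beside 14.3% of genes, became 10 without Con replicate 1 (9.94% of genes), 8 without Con replicate 3 (7.97%), 9 without A10-FMT replicate 1 (9.51%) and 6 without A10-FMT replicate 2 (10.5%).

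In HS+A10 19 members were lower than in Con and 1, Herpud1, was higher (7.93% of genes called lower, 23.5% higher). Sdf2l1 was 4.27-fold, Manf 3.12-fold, Creld2 2.70-fold, Hyou1 2.66-fold and Hspa5 2.06-fold lower, and Herpud1 1.80-fold higher. Xbp1 was 1.32-fold lower (adjusted p = 0.0106). These comparisons share the Con libraries with each other and with HS against Con. Dbp was higher in all HS+A10, A10-FMT and Con-FMT libraries than in every Con library, and its part was not tested.

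Members were also set side by side by the ERSE in their promoter. In A10-FMT against Con-FMT the median log2 change was -1.14 for the 9 members with a match and -0.56 for the 20 members with a promoter but no match. Of these, 9 and 16 were called lower, where 12% of all tested genes were. In HS+A10 against HS the medians were -0.71 and -0.38, and in Con-FMT against HS 0.48 and 0.23. In HS against Con they were 0.10 with a match and 0.13 without. Without Con-FMT replicate 3 the medians were -1.20 and -0.56 in A10-FMT against Con-FMT, with 9 and 15 called lower, beside 9.66% of all genes. In Con-FMT against HS they were then 0.47 and 0.27. Without HS replicate 1 they were -0.88 and -0.49 in HS+A10 against HS, 0.31 and 0.07 in Con-FMT against HS and 0.25 and 0.20 in HS against Con. Sdf2l1, Dnajb9 and Herpud1, which differed strongly, have no ERSE match in this window. The 20 members without a match include Herpud1 and Dnajb11, which hold an ERSE-II. These are descriptions with no test.

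Other genes of the secretory pathway were counted from fixed lists. In A10-FMT against Con-FMT, 15 of 25 tested genes of ER to Golgi transport, 14 of 26 genes of the translocon, signal peptidase and N-glycosylation, 12 of 25 other ER folding enzymes, 5 of 21 other ERAD factors and 5 of 12 genes of UPR signalling were lower, and 0 were higher in any of these lists, where 12% of all tested genes were called lower. Without Con-FMT replicate 3 these counts were 12 of 25, 13 of 26, 6 of 24, 3 of 21 and 4 of 12, beside 9.66% of all genes. The strongest were Eif2ak3 (PERK), 3.21-fold lower (2.45 ± 0.65 against 7.86 ± 1.07 RPKM, adjusted p = 5.5e-05), the ERAD ubiquitin-conjugating enzyme Ube2g2, 2.05-fold lower, and the membrane-bound transcription factor Creb3l2, 2.81-fold lower. The log2 changes without Con-FMT replicate 3 were -1.46 for Eif2ak3, -1.02 for Ube2g2 and -1.12 for Creb3l2, beside -1.37, -0.98 and -1.27 with all libraries. Ube2g2 was also 1.76-fold lower in A10-FMT and 1.71-fold lower in HS+A10 than in HS. In HS+A10 against HS, 11 of the 26 translocon and glycosylation genes were lower, where 4.37% of all genes were, among them the signal peptidase subunit Spcs2 (1.87-fold). Without HS replicate 1 it was 13 of 26, beside 7.68% of all genes, and Ube2g2 and Spcs2 were called as before.

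The genes of the PERK-ATF4 branch moved less evenly. In A10-FMT against Con-FMT 6 of 15 tested genes were lower and 0 higher (4 of 14 without Con-FMT replicate 3), beside 12% and 9.66% of all genes called lower, with Ppp1r15a and Ddit3 (CHOP) lower and Atf4, at 54.6 and 57.2 RPKM, not called (adjusted p = 0.887). In HS+A10 against HS the ATF4 target Trib3 was higher (16.8 against 5.27 RPKM, adjusted p = 0.00382) while Atf4 was lower (46.0 against 76.6 RPKM, adjusted p = 0.0146). Both calls were also made without HS replicate 1 (adjusted p = 0.000974 for Trib3 and 0.00249 for Atf4). Cytosolic chaperones were lower with the ER genes: 18 of 22 tested heat shock proteins were lower in A10-FMT than in Con-FMT, where 12% of all genes were, and 15 of 22 without Con-FMT replicate 3, where 9.66% were. Among the 18 were Hspa8, at 529.9 against 1336 RPKM (adjusted p = 0.00552), and Hsp90aa1, at 111 against 284 RPKM (adjusted p = 0.0119). Of the genes that heat shock induces, Hsph1, Bag3 and Hspb1 were lower (log2 changes of -1.99, -1.53 and -1.41, adjusted p = 0.0164, 0.0138 and 0.0380), and Hspb1 lost its call without Con-FMT replicate 3 (adjusted p = 0.0628). Hspa1b and Dnajb1 were not called (log2 changes of -0.41 and -0.39, adjusted p = 0.780 and 0.723).

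Plasma cells, which are also rich in ER, were checked by 7 markers. Their summed level was 47.1 to 55.9 RPKM in Con, 51.4 to 55.4 RPKM in A10, 66.4 to 87.4 RPKM in HS, 57.2 to 64.7 RPKM in HS+A10, 35.1 to 47.4 RPKM in A10-FMT and 50.4 to 63.0 RPKM in Con-FMT. Nearly all of it was Sdc1, which hepatocytes also express, and the plasma cell marker Mzb1 was at most at 0.55 RPKM in any library. Kupffer cell markers (7 genes) summed to 59.2 to 88.3 RPKM in Con, 71.8 to 102 RPKM in A10, 62.7 to 107 RPKM in HS, 68.6 to 107 RPKM in HS+A10, 43.1 to 52.8 RPKM in A10-FMT and 48.4 to 94.4 RPKM in Con-FMT. Of the 7, 4 were called lower in A10-FMT than in HS (3 without HS replicate 1), where 21% and 20.9% of all genes were, and 0 were called in HS+A10 against HS, Con-FMT against HS or A10-FMT against Con-FMT. Erythroid markers (7 genes, 6 of them tested) summed to 1582 to 3124 RPKM in Con, 3104 to 4018 RPKM in A10, 4435 to 12414 RPKM in HS, 2962 to 4064 RPKM in HS+A10, 1692 to 2625 RPKM in A10-FMT and 1231 to 5735 RPKM in Con-FMT. Against HS, 1 of the 6 was called lower in A10-FMT, 3 in Con-FMT and 0 in HS+A10. All tested genes were called lower at rates of 21%, 19% and 4.37% in these comparisons. Without Con-FMT replicate 3 the erythroid count in Con-FMT was 0, beside 18% of all genes. The part of these cells in the differences was not tested.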

How the data were processed

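RNA was extracted from frozen liver, mRNA was enriched with oligo(dT) beads and libraries were sequenced on an Illumina instrument. The authors aligned the reads to known genes (SOAPaligner in the methods of the study, Bowtie 0.12.2 and mm10 in the submitters' processing notes), and the deposited values are RPKM with 2 decimals. Read numbers and the strand setting are not given in the sources used here, so no counting interval was computed. Of 19057 rows, 26 had symbols turned into dates and 3 symbols were repeated, none of them a member.

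RPKM were analysed as log2(RPKM + 1), without rescaling, in the 10204 genes that averaged 1 RPKM or more. A log2 change on this scale understates the change of low genes such as Derl3. limma 3.58.1 in R 4.3.3 was fitted to all 18 libraries, with a mean for each group and a trend of the variance on expression. Two-sided p-values were corrected by Benjamini-Hochberg over all tested genes, and genes under an adjusted p of 0.05 were called. The exact permutation test of 3 against 3 libraries cannot go below p = 0.1. DEGseq, the test of the study, was not used because it ignores the spread between replicates. The script was tested on simulated data.

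Values in every library are given for 8 fixed genes (Hspa5, Hsp90b1, Pdia4, Sdf2l1, Herpud1, Derl3, Xbp1 and Sec61b). In each comparison the called members with the largest change were named, up to 5 in each direction. For some of these only ratios or means are given and not the values of every library. From the other pathway lists, up to 3 called genes per comparison and direction were named by adjusted p. PERK-ATF4, heat shock, marker and Dbp genes, and members named beyond these rules, were picked with their values in view. The members, lists and tests were chosen with earlier results of these data known. Promoters come from RefSeq and were searched with Python 3.11.15. Alternatives were other pseudocounts, filters, scalings, fits and thresholds, and leaving out each library. The 3 comparisons with Con other than HS and A10, and the counts of other lists without 1 library, were added after seeing the data.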

Additional observations from a re-analysis of the deposited data

How the results depend on the processing

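Members called in a comparison kept their direction under all alternatives run (138 pairs of a gene and a comparison), whereas 64 of the 222 pairs not called turned in at least 1. The pairs were split by calls in these same libraries, so this contrast was largely set by the split and does not back the calls. Among the 64, Calr in Con-FMT against HS had a log2 change of 0.02 without Con-FMT replicate 3. Herpud1 and Derl3 in HS+A10 against HS had -0.03 and -0.12 without HS replicate 1. With only the compared groups in the fit, 2 members were called in HS against Con, beside 6.87% of all genes. That fit called 10 in A10-FMT against HS (8.31%), 4 in Con-FMT against HS (7.6%), 0 in HS+A10 against HS (0.736%) and 22 in A10-FMT against Con-FMT (6.85%). It called 18 in A10-FMT against Con (12.7%), 15 in Con-FMT against Con (17.9%) and 20 in HS+A10 against Con (30.3%). Why these counts differed from those of the full fit was not tested. At the threshold of the study (adjusted p under 0.001 and a log2 change of at least 1), limma called 0 in HS against Con (7 at an unadjusted p under 0.05), 0 in A10-FMT against HS (30 unadjusted), 2 in Con-FMT against HS, 9 in A10-FMT against Con-FMT, 0 in HS+A10 against HS (26 unadjusted), 1 in A10-FMT against Con, 5 in Con-FMT against Con and 1 in HS+A10 against Con. The 3 unadjusted counts stand beside 3512, 3963 and 2544 of the 10204 tested genes. The share of all genes at the threshold of the study is not given here. Quantile normalization gave 2 called members in HS against Con (8.58% of genes called) and 14 in A10-FMT against HS (10.9%), with medians of -0.35 in A10-FMT against HS and -0.55 in A10-FMT against Con-FMT. Scaling to equal medians gave 2 (8.66%) and 13 (11.3%) in HS against Con and A10-FMT against HS, with medians of -0.056 and -0.30. A10-FMT against Con fell to 10 both without the filter on low values (7.4%) and with the 12 libraries of the study's groups (9.81%).

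Leaving out 1 library gave 3 to 8 called members in HS against Con, 0 to 6 in the interaction, 6 to 19 in A10-FMT against Con, 18 to 30 in A10-FMT against HS, 7 to 11 in Con-FMT against HS, 25 to 29 in A10-FMT against Con-FMT and 6 to 25 in HS+A10 against HS, whose median ranged from -0.58 to -0.37. In the same order, the shares of all genes called were 8.3 to 18.9%, 0 to 1.16%, 7.97 to 15.6%, 12.7 to 25.3%, 17.2 to 22.2%, 11.5 to 16.1% and 1.49 to 12.1%. In HS against Con, a filter at a mean of 5 RPKM gave 6 called members (22.9% of genes called). The median in HS+A10 against Con was -0.53 with scaling to equal medians and -0.39 without it. Other counts moved by at most 1.5 times and other medians by less than the spread, also after removal of the pancreatic genes with rescaling. The spread was the square root of the mean within-group variance of the members' median in each library. With the replicate number as a block, 4, 27, 11, 30 and 18 members were called in HS against Con, A10-FMT against HS, Con-FMT against HS, A10-FMT against Con-FMT and HS+A10 against HS, and Os9 in HS against Con lost its call (adjusted p = 0.0592). The shares of all genes called were then 16.6%, 21.9%, 22.8%, 17.8% and 6.44%. Deviations of same-numbered libraries from their group means correlated at -0.097 to 0.262 over 27 pairs, 5 of them above 0.1, and in 0 of 9 comparisons did every library correlate best with its own number, so the numbers were not taken as a pairing. With RPKM alone the number of reads is unknown, which limits what can be said of Derl3, Dnajc10 and Atf6, the members at the lowest levels.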
